A study of Mus musculus with 16 samples.

Results

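Interferon-stimulated genes are the genes a cell switches on after an interferon binds its receptor. The set examined here held 39 mouse genes, and its members were all probes whose platform gene symbol was 1 of these 39 names. A probe was found for 35 genes, with 45 probes in all among the 24607 probes used. No probe carried the symbols Ifi44, Mx1, Mx2 or Parp14. Probes brighter than a noise limit in 3 or more of the 12 animals were tested: 31 member probes for 26 genes, among 10534 probes for 7510 named genes. By role, the 26 tested genes were 4 regulators, 17 antiviral effectors of the type I response, 4 GTPases known for their response to interferon-gamma, and the feedback inhibitor Socs1.

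The study compared 6 SR-uPA+/0 mice, which carry a transgene that overexpresses urokinase plasminogen activator (uPA) in macrophages, with 6 nontransgenic mice. All 12 mice were female, Apoe-/- and 15 weeks old, and had eaten a Western diet for 10 weeks from 5 weeks of age. Peritoneal macrophages were elicited with thioglycollate, a sterile irritant, and collected 5 days later, and the cells still attached 2 h after plating gave the RNA, so no group holds cells from an Apoe wild type mouse or a chow diet. The sources used here do not name the promoter that drives the transgene. RNA of the 6 animals of each genotype was also combined into 1 pool, and each pool was hybridised 2 times, giving 16 Illumina Mouse Ref-8 arrays.

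Type I interferons signal through the kinases Jak1 and Tyk2 to a complex that holds Stat2 and Irf9 and binds a DNA element called the interferon-stimulated response element (ISRE). Interferon-gamma signals through Jak1 and Jak2 to genes with a gamma-activated sequence (GAS), and Irf1 carries this response on to further genes. The type I effectors act against viral RNA, viral proteins or virus entry, whereas the immunity-related and guanylate-binding GTPases act on vacuoles that hold intracellular bacteria and parasites. Macrophages respond to both kinds of interferon.

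The noise limit lay between 56.8 and 56.9 units of the deposited linear intensity on every array, and 9543 to 9551 probes passed it per array. Values were analysed as log2 of the normalized intensity, a scale on which about 97.0 units are added to each value in effect, so differences of dim genes are understated. Plau, the gene of uPA, did not separate the animals by label, with 536 at the lowest, a median of 1430.0 and 2907 at the highest in SR-uPA+/0 mice, against 513, 1805 and 3527 in nontransgenic mice (exact permutation test, two-sided, p = 0.853). Whether its probe reads the transgene was not tested. SR-uPA+/0 animals 1 and 6 stood apart from the other 10 in the principal components, with highest correlations to any other animal of 0.974 and 0.976, where each of the others reached at least 0.981. The arrays came from 2 chips, and as no source used here assigns arrays to chips, chip was left out of the fit and its part in the results was not tested.

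No interferon-stimulated gene passed the test between genotypes, in either direction. Among the 31 member probes 0 had a limma adjusted p under 0.05, beside 11 higher and 66 lower probes among all 10534, a background of 0.104% and 0.627%. At an unadjusted p under 0.05, 4 of the 26 genes were higher in SR-uPA+/0 animals and 0 were lower, beside 4.03% and 4.85% of all named genes tested. These 4 were Socs1, Igtp, Isg20 and Isg15. The sign of the differences was mostly positive: 23 of 26 genes, or 88.5%, had a higher mean log2 value in SR-uPA+/0 animals, beside 51.9% of all named genes tested. The genes were measured in the same animals and are not independent, so this count is a description.

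**Figure D1:**
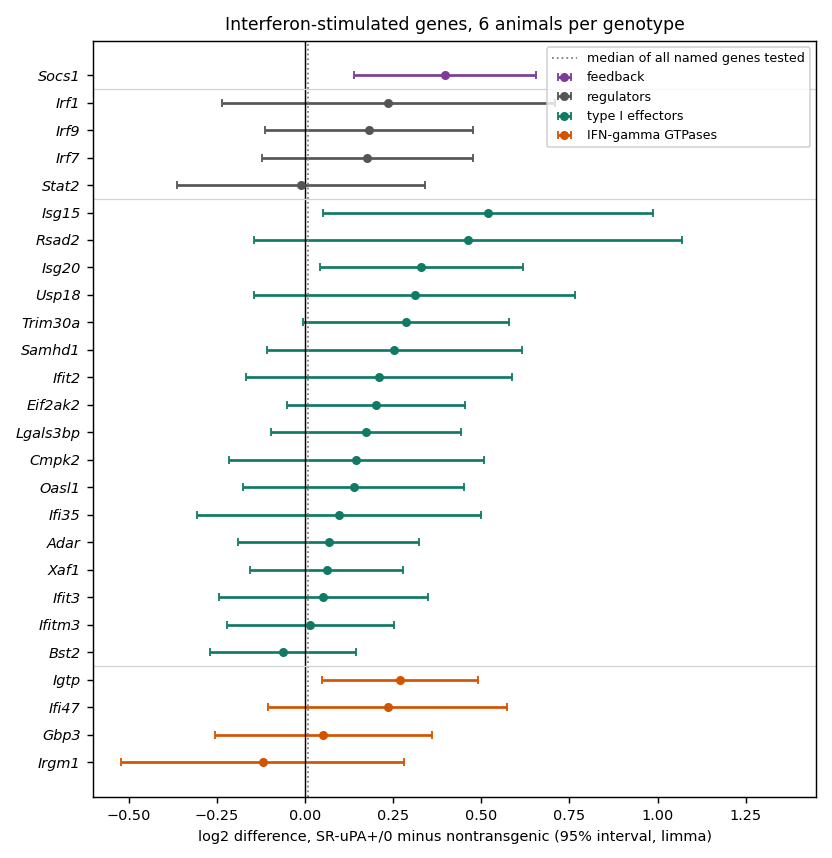
Log2 difference of each tested gene, SR-uPA+/0 minus nontransgenic (x axis), with its 95% interval from limma, grouped by role down the page. The interval leaves out 0 for 4 of 26 genes (Socs1, Isg15, Isg20 and Igtp), and Isg15 has the largest difference, 0.52.

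By class, the type I effectors had a median log2 difference of 0.17 and the GTPases one of 0.14, beside 0.0077 for all named genes tested. The sign was positive for 16 of 17 type I effectors, 3 of 4 GTPases and 3 of 4 regulators. With only 4 tested genes the GTPase median moved with single animals and filters. It was 0.062 without SR-uPA+/0 animal 1, 0.090 without animal 3 and 0.052 when probes had to pass the noise limit on all 12 animals. The difference between the classes was not tested.

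The interferon genes themselves were dim. Ifnb1, Ifna1, Ifna2 and Ifna4, of the type I family, Ifnk and Ifng did not pass the noise limit on any animal array, nor did the probe of Ifnar1, a chain of the type I receptor. Of the 23 listed ligands, receptors, JAKs, STATs and their inhibitors, 14 genes were tested and 0 passed in either direction, with a median log2 difference of -0.01. Jak2, the kinase of the interferon-gamma receptor, had the smallest p of this list, with 446 ± 116 in SR-uPA+/0 animals and 633 ± 125 in nontransgenic animals (SD, n = 6 each) and -0.43 ± 0.16 as the log2 difference (SE, limma adjusted p = 0.404). Jak1, shared by both receptors, came next, at 176 ± 33.7 in SR-uPA+/0 and 142 ± 57.4 in nontransgenic animals (log2 difference 0.22 ± 0.15, adjusted p = 0.755).

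The sensors of viral nucleic acid among the members could not be compared. Ifih1 and Dhx58, both RIG-I-like RNA helicases, and Zbp1, which binds Z-form nucleic acid, were above the noise limit on 0 of 12 animal arrays. Among 22 further sensing genes 16 were tested, 0 passed, and the median log2 difference was 0.10. Trex1, the exonuclease that removes cytosolic DNA, had 1533 ± 601 in SR-uPA+/0 and 979 ± 218 in nontransgenic animals, a log2 difference of 0.53 ± 0.22 (adjusted p = 0.509). Unc93b1, which carries nucleic acid-sensing Toll-like receptors to the endosome, had 1884 ± 359 in SR-uPA+/0 and 1514 ± 437 in nontransgenic animals (0.32 ± 0.17, adjusted p = 0.633).

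All 4 regulators overlapped between genotypes. Irf7, the factor that amplifies type I interferon production, had intensities of 576, 473, 395, 610.1, 398 and 407 in the SR-uPA+/0 animals, against 267, 387, 401, 405, 532 and 476 in the nontransgenic animals. Its log2 difference was 0.18 ± 0.14 (SE, adjusted p = 0.799), and the 2 highest SR-uPA+/0 animals lay above every nontransgenic one. Irf9, the DNA-binding subunit of the type I complex, read 751, 1156, 1166, 1322, 981 and 1239.8 in the SR-uPA+/0 animals, against 1079.9, 870.4, 701, 1048, 1044 and 989 in the nontransgenic animals. Here 4 of 6 SR-uPA+/0 animals exceeded the highest nontransgenic animal, but animal 1 was the lowest of its group, and the log2 difference was 0.18 ± 0.14 (adjusted p = 0.787).

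Irf1, which relays the interferon-gamma response, had 2548, 2973, 2137, 2823, 1927 and 1502 in the SR-uPA+/0 animals, against 2036, 1115, 1287, 2781, 2929 and 1983 in the nontransgenic animals. The ranges overlapped over most of their length, and the log2 difference of this brightest probe was 0.24 ± 0.22 (adjusted p = 0.83). The other 2 tested Irf1 probes had the opposite sign, at -0.20 ± 0.17 and -0.04 ± 0.24, and neither passed (adjusted p = 0.817 and 0.975). The probe at -0.20 was dim, with means of 29.4 in SR-uPA+/0 and 48.5 in nontransgenic animals. It was above the noise limit on 1 SR-uPA+/0 and 2 nontransgenic animals. In the pools these 2 probes had positive log2 differences, 0.16 and 0.26, with overlapping readings, and the brightest probe had 0.28. The direction of Irf1 was not settled by these values. Stat2, the partner of Irf9, read 161, 278, 143, 176, 107 and 189 in the SR-uPA+/0 animals, against 163, 239.9, 127, 97.6, 255 and 190.4 in the nontransgenic animals, and its log2 difference of -0.01 ± 0.17 was close to 0 (adjusted p = 0.992).

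Among the type I effectors, Isg15 had the largest difference. Isg15 is a ubiquitin-like protein that is attached to other proteins during an antiviral response. Its intensities were 619, 250.2, 512, 259, 428 and 159.9 in the SR-uPA+/0 animals, against 259, 288, 202, 223, 114 and 207 in the nontransgenic animals. SR-uPA+/0 animals 1, 3 and 5 lay above all nontransgenic animals, animals 2 and 4 lay within their range, and animal 6 was below all nontransgenic animals but one. The log2 difference was 0.52 ± 0.22 (limma p = 0.0321, adjusted p = 0.523), and the exact permutation test over the animals gave p = 0.0866. Without SR-uPA+/0 animal 1 it was 0.38, and without animal 6 it was 0.67, with an adjusted p of 0.186 (0.186 to 0.781 over all alternatives).

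Rsad2, or viperin, makes a nucleotide analogue that stops viral RNA synthesis, and it varied most over the animals, with an SD of 0.63 on the log2 scale. Its intensities were 3935, 2217, 2233, 2986, 1311 and 742 in the SR-uPA+/0 animals, against 1104, 1326, 1745, 1767, 1428 and 1198 in the nontransgenic animals. In SR-uPA+/0 mice 4 animals were above every nontransgenic animal while animal 6 was below every one, so the SD of the log2 values was 0.81 in SR-uPA+/0 and 0.26 in nontransgenic animals. The log2 difference was 0.46 ± 0.29 (adjusted p = 0.709, exact permutation p = 0.223). Leaving out SR-uPA+/0 animal 1 brought it to 0.27, and leaving out animal 6 brought it to 0.72 (adjusted p = 0.195, and 0.195 to 0.856 over all alternatives).

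Isg20, an exonuclease that degrades RNA, read 105, 76.5, 177, 73.5, 130.1 and 146 in the SR-uPA+/0 animals, against 65.9, 62.5, 93.1, 106, 63.4 and 45.7 in the nontransgenic animals. Every SR-uPA+/0 animal was above the nontransgenic mean and 3 were above the highest nontransgenic animal, with a log2 difference of 0.33 ± 0.14 (adjusted p = 0.498, exact permutation p = 0.039). Trim30a, a member of the tripartite motif family, read 700.4, 897, 1003, 1029.6, 1037 and 919 in the SR-uPA+/0 animals, against 666, 529, 669, 914, 941 and 794 in the nontransgenic animals (log2 difference 0.29 ± 0.14, adjusted p = 0.6). Here 3 SR-uPA+/0 animals were above the nontransgenic range and animal 1, the highest for Isg15 and Rsad2, was the lowest of its group.

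Eif2ak2, the kinase PKR that halts translation on double-stranded RNA, read 1649, 1427, 1203, 1805, 1487 and 1938 in the SR-uPA+/0 animals, against 1326, 1159, 1382, 1318, 1442 and 1493 in the nontransgenic animals. Its groups overlapped, with 3 of 6 SR-uPA+/0 animals above the nontransgenic range and a log2 difference of 0.20 ± 0.12 (adjusted p = 0.697). Usp18, the protease that removes Isg15 from proteins and restrains the type I receptor, read 538, 271, 365, 282, 292 and 215 in the SR-uPA+/0 animals, against 443, 226, 252, 84.8, 279.9 and 228 in the nontransgenic animals. The nontransgenic animals spread more than the SR-uPA+/0 animals here, from animal 4, the lowest of all 12, to animal 1, which exceeded 5 of the 6 SR-uPA+/0 animals, and the log2 difference was 0.31 ± 0.22 (adjusted p = 0.756).

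**Figure D2:**
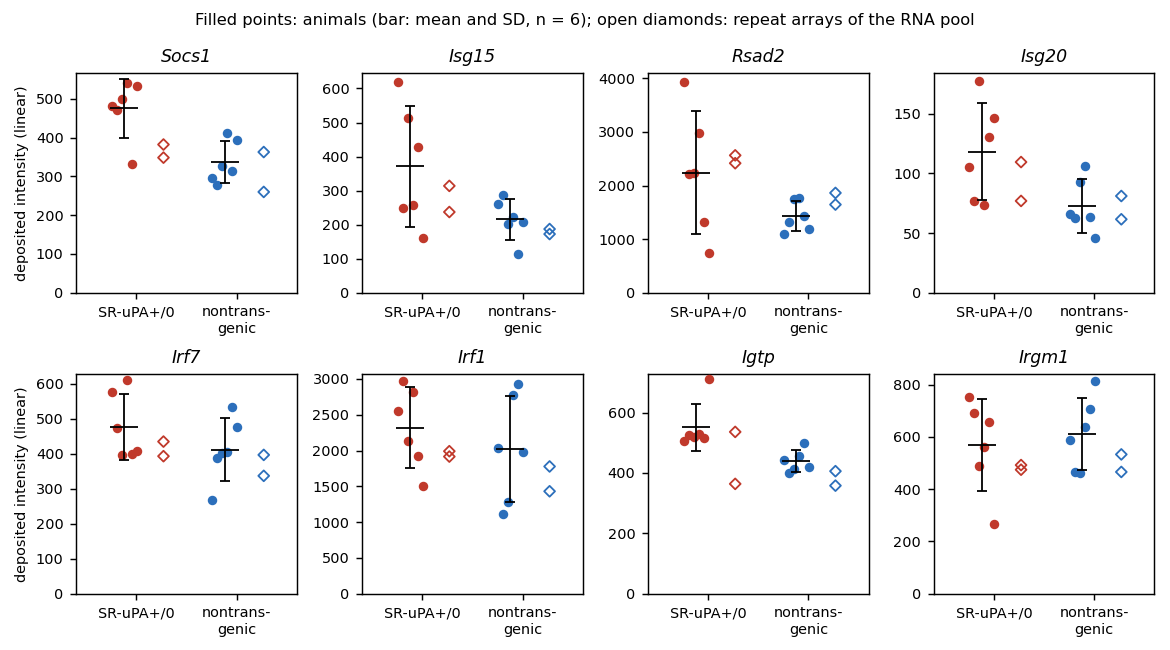
Deposited linear intensity (y axis, from 0) of 8 genes in the 6 animals of each genotype (filled points in order of animal number, with mean and SD) and in the 2 repeat arrays of each RNA pool (open diamonds). Igtp is the gene whose genotypes do not overlap, with SR-uPA+/0 animals from 506 to 709.8 above nontransgenic animals from 399 to 499.

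The other type I effectors had log2 differences of 0.25 or less. Samhd1, which lowers the nucleotide supply, had a log2 difference of 0.25 ± 0.17, and Ifit2, which binds viral RNA, one of 0.21 ± 0.18. Lgals3bp, a secreted glycoprotein, stood at 0.17 ± 0.13, the mitochondrial nucleotide kinase Cmpk2 at 0.15 ± 0.17 and the RNA sensor homologue Oasl1 at 0.14 ± 0.15. The remaining 6 genes (Ifi35, Adar, Xaf1, Ifit3, Ifitm3 and Bst2) lay between -0.06 and 0.10, and all 11 had adjusted p-values of 0.745 or more. Ifit2, Cmpk2 and Ifit3 were dim, above the noise limit on 3, 4 and 3 SR-uPA+/0 and 4, 3 and 5 nontransgenic animals, so their differences are understated. Ifit2 read 87.7 ± 65.5 in SR-uPA+/0 and 55.9 ± 13.7 in nontransgenic animals, and without SR-uPA+/0 animal 1 its log2 difference was 0.054. Bst2, or tetherin, which holds budding virus on the cell, was the type I effector with a negative difference. Ifit1, Oas1a and Oasl2 were not tested, with 0, 0 and 1 of 12 animals above the noise limit. Oas1a rests on 1 probe by its annotated symbol. The brightest probe annotated to its close paralogue Oas1g, whose probe name carries the gene number of Oas1a, read 5017 ± 473 in SR-uPA+/0 and 4756 ± 572 in nontransgenic animals (log2 difference 0.08 ± 0.11, adjusted p = 0.884), and which of the 2 genes it reads was not tested.

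A second, dim Ifit3 probe passed the filter only through 3 SR-uPA+/0 arrays, with 0 nontransgenic arrays above the noise limit, so its values are given as a description. It read 47.0 to 84.7 in SR-uPA+/0 and 20.1 to 45.2 in nontransgenic animals. The brighter probe that stands for Ifit3 overlapped, at a log2 difference of 0.05 ± 0.14. In the pools the dim probe ran the other way, with 37.0 and 40.4 in the SR-uPA+/0 pool, against 47.3 and 41.8 in the nontransgenic pool.

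The letters before the start sites of these genes were compared with the elements that interferon factors bind. A letter match does not show binding, which was not tested. RefSeq promoters of build GRCm38.p6 were available for 32 of the 39 members, as 41 promoters. The 250 bases before each start were searched on both strands for the ISRE core (GAAA, any 2 bases, GAAA) and for the GAS core (TTC, any 3 bases, GAA), which can overlap. The ISRE core was present in 14 of 41 member promoters, or 34.1%, beside 2.98% of all 32851 promoters. The GAS core was present in 9 of 41, or 22.0%, beside 7.02% of all. The list is one of known interferon targets, so these shares describe the members and say nothing on the genotypes. Stretches around the matches are printed for the effectors with the values above and for Ifit3, 5′ to 3′ on the gene's strand, with the matched letters in capitals. The Isg15 stretch, chr4:156200860-156200911 (- strand), holds 3 overlapping ISRE matches, the Ifit3 stretch, chr19:34583358-34583431 (+ strand), holds 2 separate ones, and the Rsad2 stretch, chr12:26456548-26456587 (- strand), and the Trim30a stretch, chr7:104465205-104465244 (- strand), hold 1 each. The Isg20 stretch, chr7:78913336-78913374 (+ strand), and the Eif2ak2 stretch, chr17:78882727-78882765 (- strand), hold a GAS match and no ISRE match in this window.
Isg15: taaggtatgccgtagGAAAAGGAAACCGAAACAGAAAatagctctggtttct
Rsad2: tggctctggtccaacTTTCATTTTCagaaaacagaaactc
Ifit3: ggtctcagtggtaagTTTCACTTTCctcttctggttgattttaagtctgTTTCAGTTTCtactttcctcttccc
Trim30a: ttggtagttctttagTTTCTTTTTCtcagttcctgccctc
Isg20: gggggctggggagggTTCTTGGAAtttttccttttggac
Eif2ak2: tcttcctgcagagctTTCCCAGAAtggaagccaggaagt

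Igtp was the GTPase with the most separate genotypes. Igtp, also called Irgm3, guards the membranes around vacuoles and lipid droplets. Its intensities were 506, 526, 519, 528, 516 and 709.8 in the SR-uPA+/0 animals, against 442, 399, 414, 457, 499 and 419 in the nontransgenic animals. Every SR-uPA+/0 animal was above every nontransgenic animal, which 0.306% of all named genes tested did in this direction, and 5 of the 6 SR-uPA+/0 values lay within 506 to 528. The log2 difference was 0.27 ± 0.10 (limma adjusted p = 0.447), a fold of 1.21 with a 95% interval of 1.04 to 1.41. The exact permutation test gave p = 0.00216, unadjusted, the smallest that 6 against 6 animals allow.

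Irgm1, which directs autophagy against mycobacteria, read 752, 693, 487, 561, 656 and 266 in the SR-uPA+/0 animals, against 588, 467, 462, 637, 706 and 813 in the nontransgenic animals. The nontransgenic range lay inside the SR-uPA+/0 range except for the top animal, SR-uPA+/0 animal 6 was far below the rest, and the log2 difference was -0.12 ± 0.19 (adjusted p = 0.903). Without that animal the difference was 0.05. Ifi47, another immunity-related GTPase, read 211, 74.4, 177, 129.7, 98.8 and 70.4 in the SR-uPA+/0 animals, against 142, 83.1, 93.1, 51.9, 92.5 and 79.1 in the nontransgenic animals (log2 difference 0.23 ± 0.16, adjusted p = 0.75), with SR-uPA+/0 animals 1 and 3 above the nontransgenic range. Gbp3, a guanylate-binding protein, read 910.0, 661, 839, 492, 707 and 738 in the SR-uPA+/0 animals, against 523, 658, 568, 839, 729.9 and 843 in the nontransgenic animals, and its groups overlapped throughout (log2 difference 0.05 ± 0.15, adjusted p = 0.953).

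Iigp1, Tgtp1 and Gbp2 were above the noise limit on 0 of 12 animals. These are inducible GTPases of the interferon-gamma response, and no difference between genotypes was detectable for them at this signal. Among 9 further interferon-inducible GTPases only Irgm2 was tested, at 351 ± 103 in SR-uPA+/0 and 435 ± 135 in nontransgenic animals (log2 difference -0.25 ± 0.18, adjusted p = 0.779). Igtp, Irgm1 and Irgm2 thus had signs that differed, although none of the 3 passed the test.

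An ISRE match was found in the promoters of 5 of the 6 GTPases with a promoter, or 83.3%. It was found for 7 of 20 type I effectors, or 35.0%, beside 3.46% of all genes with a promoter. A GAS match was found for 2 of 6 GTPases, or 33.3%, and 6 of 20 effectors, or 30.0%, beside 8.13% of all genes. The difference between the classes in these shares was not tested. The stretches of Igtp, chr11:58199496-58199546 (+ strand), Irgm1, chr11:48871421-48871465 (- strand), and Gbp3, chr3:142559984-142560029 (+ strand), are printed because these are the 3 tested GTPases with a match. The Igtp stretch holds 1 GAS match followed by 1 ISRE match, and the others hold 2 overlapping ISRE matches each. Socs1, chr16:10785589-10785634 (- strand), with 2 overlapping ISRE matches, and Irf1, chr11:53769909-53769947 (+ strand), with 1 GAS match, are shown with them.
Igtp: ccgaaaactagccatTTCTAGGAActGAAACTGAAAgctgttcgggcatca
Irgm1: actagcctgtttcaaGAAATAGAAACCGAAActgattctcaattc
Gbp3: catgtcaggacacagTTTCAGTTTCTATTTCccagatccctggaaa
Socs1: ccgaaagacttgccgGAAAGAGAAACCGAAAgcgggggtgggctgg
Irf1: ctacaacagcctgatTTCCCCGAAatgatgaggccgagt

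Socs1, which blocks JAK kinases and so ends the response to both kinds of interferon, had the smallest p of all members and is described for that reason. Its intensities were 480.2, 470.5, 499, 539.7, 331 and 532 in the SR-uPA+/0 animals, against 295, 278, 326, 411, 315 and 393 in the nontransgenic animals. In SR-uPA+/0 mice 5 of 6 animals were above every nontransgenic animal, and animal 5 lay within the nontransgenic range. The log2 difference was 0.40 ± 0.12 (limma p = 0.00491, adjusted p = 0.243, exact permutation p = 0.0108), a fold of 1.32 with a 95% interval of 1.10 to 1.58. It ranked 213 by p among the 10534 tested probes. Without SR-uPA+/0 animal 5 the log2 difference was 0.48 and the adjusted p was 0.086, and over all animals left out in turn the adjusted p lay between 0.086 and 0.504.

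**Figure D3:**
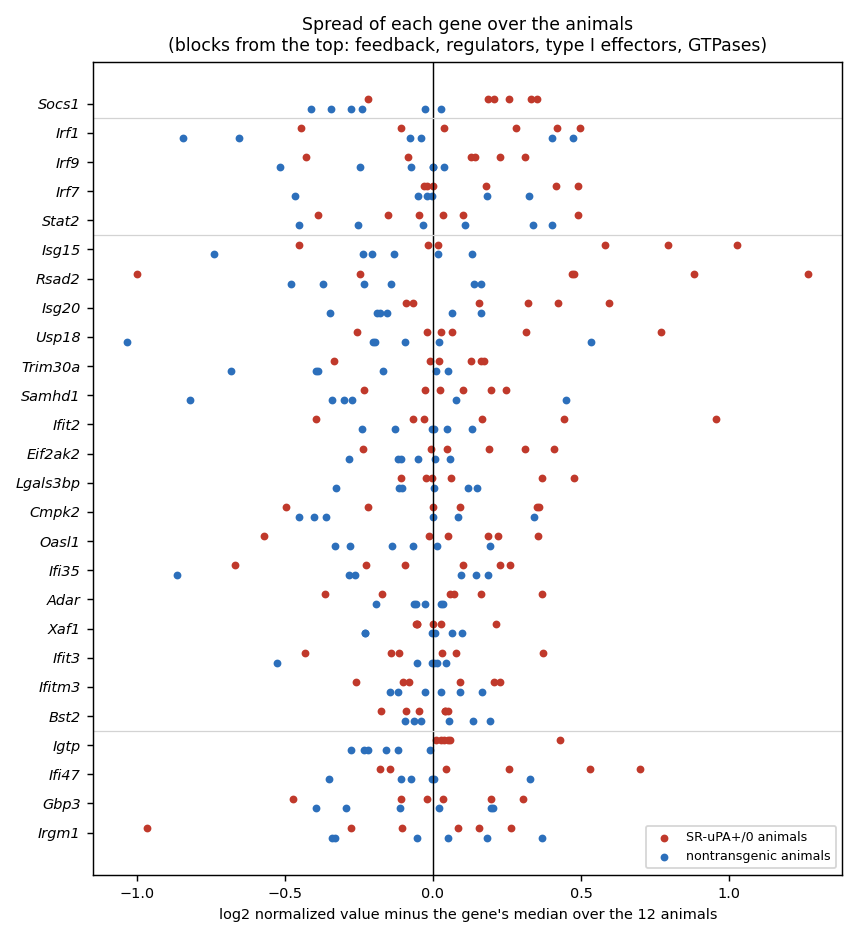
Log2 normalized value of each tested gene minus its median over the 12 animals (x axis), 1 point per animal, SR-uPA+/0 above nontransgenic in each row. Rsad2 has the widest spread in SR-uPA+/0 animals (SD 0.81), and Igtp is the row in which the genotypes do not overlap.

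Taken animal by animal, the type I effectors and the GTPases did not put the animals in the same order, and whether members moved together was not tested. For each animal the median over a class of the deviations from each gene's 12-animal median was taken. For the 17 type I effectors this was 0.21, -0.01, 0.10, 0.04, 0.05 and 0.02 in SR-uPA+/0 animals 1 to 6, against -0.11, -0.13, -0.05, 0.01, 0.01 and -0.19 in nontransgenic animals 1 to 6. It averaged 0.07 ± 0.08 in SR-uPA+/0 and -0.08 ± 0.08 in nontransgenic animals (SD, n = 6 each). Here 5 of 6 SR-uPA+/0 animals were above the highest nontransgenic animal, and animal 2 was not.

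For the 4 GTPases the same measure was 0.28, -0.03, 0.12, -0.02, 0.04 and -0.07 in SR-uPA+/0 animals, against -0.10, -0.19, -0.26, -0.03, 0.01 and 0.05 in nontransgenic animals. The means were 0.05 ± 0.13 in SR-uPA+/0 and -0.09 ± 0.12 in nontransgenic animals, and 2 of 6 SR-uPA+/0 animals were above the nontransgenic range. Both classes had the same sign in 8 of 12 animals, 4 of each genotype. SR-uPA+/0 animal 1 was highest in both classes, nontransgenic animal 6 was lowest for the effectors and slightly positive for the GTPases, and nontransgenic animal 3 was lowest for the GTPases.

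**Figure D4:**
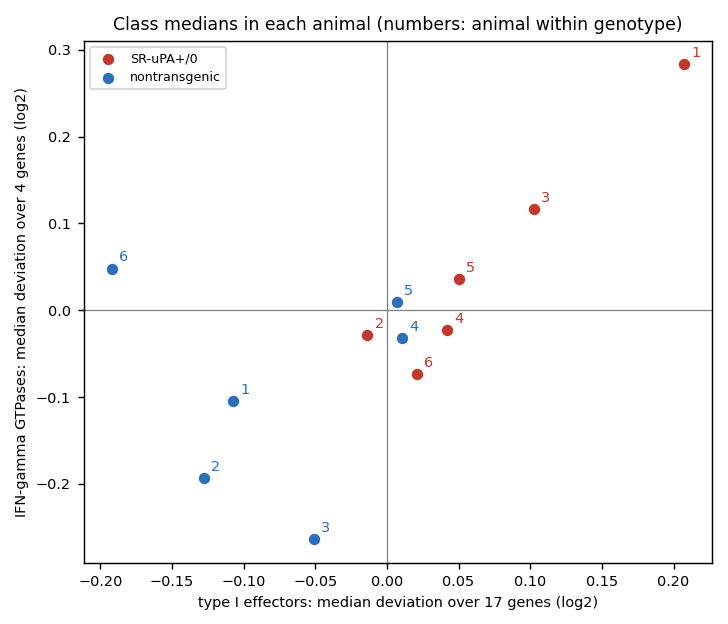
Median deviation over the 4 GTPases (y axis, log2) against that over the 17 type I effectors (x axis, log2), 1 point per animal, numbered within genotype. SR-uPA+/0 animal 1 lies at the top right, at 0.21 and 0.28, and nontransgenic animal 6 has the lowest effector value, -0.19, with a GTPase value of 0.05.

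SR-uPA+/0 animal 1 had the highest value of all 12 animals for 9 of the 26 member genes, 7 of them type I effectors, beside 12.2% of all named genes tested. SR-uPA+/0 animal 6 was highest for 4 and lowest for 5, beside 14.0% and 12.3% of all genes. Nontransgenic animal 2 was lowest for 6 genes, beside 6.70% of all. The SD of the log2 values was larger in SR-uPA+/0 than in nontransgenic animals for 17 of the 26 genes, or 65.4%, beside 63.1% of all named genes tested, close to that background. Without SR-uPA+/0 animals 1 and 6, 19 of 26 genes had a positive difference and the median was 0.22 for the effectors and 0.10 for the GTPases.

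Whether effectors followed a regulator over the animals was examined in 21 pairs. Across the 12 animals, Irf7 correlated positively with 12 of 17 type I effectors, with Pearson's r between -0.53 and 0.61 and a median of 0.34. The highest was Rsad2 (r = 0.61, permutation p = 0.0349; Spearman's rho = 0.45, permutation p = 0.148), and its adjusted p over the 21 pairs was 0.294 for r and 0.484 for rho. Without the 2 animals farthest from the median of Irf7, SR-uPA+/0 animal 4 and nontransgenic animal 1, r was 0.48. Within SR-uPA+/0 animals r was 0.76 (exact permutation p = 0.0903, n = 6), and within nontransgenic animals it was 0.32 (exact permutation p = 0.557, n = 6). No pair passed, and 2 of 21 had an unadjusted p under 0.05 for r. The smallest adjusted p was 0.294 for r, shared by several pairs, and 0.189 for rho, that of Irf7 with Eif2ak2 (rho = 0.73). The smallest p within a genotype belonged to a negative r, that of Irf7 with Cmpk2. It was -0.88 in nontransgenic animals (exact permutation p = 0.00833, unadjusted) and 0.43 in SR-uPA+/0 animals (exact permutation p = 0.382). Cmpk2 was above the noise limit on 3 nontransgenic and 4 SR-uPA+/0 animals. With Isg20, r was -0.78 in SR-uPA+/0 animals (exact permutation p = 0.0875).

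Irf1 had positive r with all 4 GTPases, from 0.16 for Ifi47 to 0.61 for Irgm1 (permutation p = 0.0324, adjusted p = 0.294; rho = 0.55, permutation p = 0.070, adjusted p = 0.484). Without nontransgenic animals 2 and 3, the farthest from the median of Irf1, r with Irgm1 was 0.60. It changed sign for Igtp, at -0.37 against 0.23 over all animals, and for Gbp3, at -0.10 against 0.16. Within SR-uPA+/0 animals, r with Irgm1 was 0.77 (exact permutation p = 0.0625, n = 6), and within nontransgenic animals 0.75 (exact permutation p = 0.0861, n = 6). The other GTPases had opposite signs within the 2 genotypes. For Igtp r was -0.73 in SR-uPA+/0 and 0.90 in nontransgenic animals (exact permutation p = 0.133 and 0.0111, unadjusted). For Gbp3 it was -0.34 and 0.49, and for Ifi47 0.29 and -0.19.

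The pools were hybridised 2 times each and hold RNA of the same animals, so they repeat the comparison technically and add no biological replicate. The SR-uPA+/0 minus nontransgenic log2 difference of the pools had a median of 0.16 over the effectors and 0.03 over the GTPases, beside 0.0072 over all named genes tested. It was positive for 21 of 26 members, or 80.8%, beside 51.4% of all. The members' median pool difference was 0.15. The median gap between repeat arrays of a pool, taken without sign, was 0.19 on the log2 scale for the members and for all named genes tested. That gap lies between single arrays, whereas the pool difference has a sign and is taken between means of 2 arrays, so the sizes of the 2 medians cannot be compared directly. Both SR-uPA+/0 readings exceeded both nontransgenic readings for 7 of 26 members, or 26.9%, beside 17.8% of all genes. These were Irf1, Irf9, Adar, Ifit2, Isg15, Lgals3bp and Rsad2. Isg15 read 314 and 237 in the SR-uPA+/0 pool, against 172 and 187 in the nontransgenic pool, and Rsad2 read 2563 and 2416 in the SR-uPA+/0 pool, against 1862 and 1644 in the nontransgenic pool. Igtp, separate in the animals, read 536 and 364 in the SR-uPA+/0 pool, against 358 and 406 in the nontransgenic pool, so its pool readings overlapped. Those of Socs1 also overlapped, at 348 and 382 in the SR-uPA+/0 pool, against 260 and 363 in the nontransgenic pool. Its log2 difference was 0.19 in the pools, beside 0.40 in the animals.

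Of 40 further interferon-stimulated genes 17 were tested, 11 had a positive sign and 0 passed. Ifi27l2a, a mitochondrial protein of the type I response, came closest, with 6152 ± 970.0 in SR-uPA+/0 and 4110 ± 911 in nontransgenic animals (log2 difference 0.59 ± 0.15, limma adjusted p = 0.111, exact permutation p = 0.00866). Ifi205, of the DNA-binding HIN-200 family, had 4132 ± 1364 in SR-uPA+/0 and 3001 ± 708 in nontransgenic animals (0.42 ± 0.20, adjusted p = 0.573).

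Some markers of other cells differed between the genotypes beside these genes. Of 10 tested neutrophil markers 4 passed as higher: S100a8, S100a9, Retnlg and Pglyrp1. All 10 had a positive sign, with the smallest differences for Ltf and Camp (limma adjusted p = 0.768 and 0.847). Elane, Mmp8, Mpo and Ngp were never above the noise limit. The sum over the 10 was 12797 to 46279 in SR-uPA+/0 animals, against 5098 to 18734 in nontransgenic animals. On average S100a8 and S100a9 gave its largest parts, at 14196 and 7280 in SR-uPA+/0 and 4021 and 1590 in nontransgenic animals. Of 13 tested fibroblast and mesothelial markers 4 passed as lower: Col1a1, Col3a1, Col6a1 and Serping1. The mesothelial markers did not pass. Msln, Krt7, Krt18 and Upk3b had log2 differences of 0.10, -0.01, -0.03 and -0.07, Krt8 had -0.26 and Wt1 -0.66 (limma adjusted p = 0.127). Sums over the 13 were 1494 to 6475 in SR-uPA+/0, against 7621 to 14990 in nontransgenic animals. On average Dcn gave the largest part, at 2005 and 5343, and the probe that stands for it did not pass (limma adjusted p = 0.0666). Of its dimmer tested probes, 1 passed as lower (log2 difference -1.20, limma adjusted p = 0.0265) and 1 did not (-0.98, limma adjusted p = 0.309). SR-uPA+/0 animal 1, the highest in both interferon classes, had a neutrophil sum of 34050, the lowest fibroblast sum, 1494, the lowest macrophage sum, 83134, and the highest B cell sum, 671. SR-uPA+/0 animal 6, with class medians of 0.02 and -0.07, had a neutrophil sum of 31566. The part of these cells in the interferon values was not tested, and in bulk RNA a change in the number of cells of a type and in RNA per cell cannot be told apart. Of 7 tested macrophage markers 0 passed, with sums of 83134 to 98889 in SR-uPA+/0 and 84802 to 94500 in nontransgenic animals, while Cd163 and Msr1 were never above the noise limit and Cd68 and Csf1r had no probe. On average Lyz2 alone gave the largest part of this sum, at 52919 in SR-uPA+/0 and 51485 in nontransgenic animals. None of 3 tested B cell markers or 5 tested markers of resident peritoneal macrophages passed. At an unadjusted limma p under 0.05, 1 of the B cell markers was higher and 2 of the resident markers were lower. Cd79b had 404 ± 142 in SR-uPA+/0 and 203 ± 108 in nontransgenic animals (log2 difference 0.76 ± 0.23, adjusted p = 0.205). Gata6 had 302 ± 248 and 576 ± 211 (-0.87 ± 0.28, adjusted p = 0.296), and Timd4 had a log2 difference of -0.25 ± 0.11 (adjusted p = 0.554). The other tested resident markers, Icam2, Selp and Cd209b, had log2 differences of -0.06, 0.05 and 0.006. Of the T and NK cell markers, a source of interferon-gamma, Cd3e, Cd3g, Cd4, Gzma, Ncr1 and Prf1 were never above it. The NK cell receptors Klrb1c and Klrd1 were tested and neither passed, and their sum was 127 to 284 in SR-uPA+/0 animals, highest in animal 1 and lowest in animal 6, against 135 to 236 in nontransgenic animals. Klrb1c was above the limit on all 12 animals, at 108 ± 27.6 in SR-uPA+/0 and 93.0 ± 24.8 in nontransgenic animals (log2 difference 0.10 ± 0.12, adjusted p = 0.859). The 5 tested plasmacytoid dendritic cell markers summed to 9697 to 12570 in SR-uPA+/0 and 10760 to 12784 in nontransgenic animals, nearly all of it from Bst2, which the list shares with the effectors, and Tcf4. The dimmer Siglech had 124 ± 15.2 in SR-uPA+/0 and 102 ± 20.98 in nontransgenic animals (log2 difference 0.16 ± 0.10, adjusted p = 0.733). Ly6d had 90.0 ± 33.8 in SR-uPA+/0 and 39.7 ± 43.1 in nontransgenic animals (0.50 ± 0.20, unadjusted p = 0.0237, adjusted p = 0.479). The other tested markers of this list, Bst2, Tcf4 and Pacsin1, had log2 differences of -0.06, -0.01 and 0.009.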

How the data were processed

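Thioglycollate-elicited peritoneal macrophages were profiled on Illumina Mouse Ref-8 arrays, 12 of animals and 4 of pools. The authors deposited linear intensities, and the submitters' processing notes name BeadStudio. Each column runs below 0, so a background had been subtracted, and the sources used here do not name the authors' normalization. The authors' non-normalized table was not used because its 32 value columns carry running numbers that match no label.

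From these intensities, 4 control probes of 24611 were left out. The noise limit of an array was 1.64 times the root mean square of its negative values, and a probe was tested if it passed the limit on at least 3 of the 12 animals. Values went through normexp (saddle method, offset 16), quantile normalization over the 12 animals and log2, then lmFit and eBayes in limma 3.58.1 (R 4.3.3), SR-uPA+/0 minus nontransgenic, with Benjamini-Hochberg adjustment over all 10534 tested probes. Pool arrays did not enter the fit. Exact permutation tests ran over the 924 assignments of animals, two-sided. Correlations used 100000 resamples and SciPy 1.17.1. The fit was tested on simulated data. The brightest tested probe stands for a gene. Probe symbols come from the platform annotation, which can be old: 19852 probes had a symbol and 4755 had none.

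Values in every animal are given for the regulators, for the 5 effectors and 4 GTPases with the smallest p and for the 3 effectors and 2 GTPases with the largest SD. From each list of other pathway genes the members that passed are named, or the 2 with the smallest p. The members, lists and tests were chosen with earlier results of these data known. Per the labels the 6 RNA samples of a genotype are separate biological replicates. The number of arrays limits the precision. Alternatives varied the background step, offset, normalization, filter, floor, variance model, weights, test, animals, probe rule, class and motif.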

Additional observations from a re-analysis of the deposited data

Results flagged for a closer look

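Each genotype's 6 animals were searched for a value whose gap to its nearest neighbour took up more than 0.625 of the group's range, Dixon's limit for 6 samples. Chance marks about 1 in 20 groups, and 4 of 52 were found. Igtp in SR-uPA+/0 animal 6 had 709.8, the nearest other animal had 528, and the gap took up 0.892 of the range; without this animal the log2 difference of Igtp was 0.21. Xaf1, a gene linked to apoptosis, had 137 in SR-uPA+/0 animal 1, beside 108 in the nearest other. Socs1 had 331 in SR-uPA+/0 animal 5, below the nearest other at 470.5. Ifit3 had 17.9 in nontransgenic animal 5, below the noise limit, beside 62.8 in the nearest other. No cause was tested for any of the 4.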

How the results depend on the processing

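Under the 23 alternatives run for each, 0 member probes passed and the effector median stayed positive, between 0.13 and 0.22. The GTPase median lay between 0.052 and 0.19 under the 22 run for it. Of all probes, 7 passed as higher and 35 as lower with no filter, and 5 and 28 with the limit required on all 12 animals. By the exact Mann-Whitney test 0 and 0 passed. With 6 against 6 animals its p cannot fall under 0.00216. After adjustment over 10534 probes none can pass unless very many separate fully, so no conclusion is drawn from this 0, also for the member probes. Without SR-uPA+/0 animals 1 and 6, 7 passed as higher. With each animal left out in turn 6 to 15 passed as higher and 34 to 78 as lower, and 2 to 6 member genes had an unadjusted p under 0.05. The sign turned for Ifitm3 with array weights, at -0.00365, and without SR-uPA+/0 animals 1 and 6 for Gbp3 (-0.038), Ifi35 (-0.027), Ifit3 (-0.066) and Ifitm3 (-0.085). With single animals left out, 7 genes turned, and the ranges were -0.0022 to 0.14 for Adar, -0.014 to 0.14 for Gbp3, -0.027 to 0.069 for Ifitm3, -0.11 to 0.068 for Stat2, -0.036 to 0.13 for Ifit3, -0.043 to 0.22 for Ifi35 and -0.20 to 0.046 for Irgm1. The cause was not tested. The looser ISRE core, without the last A, was found in 16 of 41 member promoters and 7.13% of all promoters, as fewer letters are required. No paired analysis was possible because the animals carry no replicate numbers in the labels, and those of the pools mark repeat arrays of 1 RNA each. Signal limits the dim members: 9 of 35 genes with a probe were not tested.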
